A study of Mus musculus with 11 samples.

Results

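Cholesterol and fatty acids are built from the same precursor, acetyl-CoA, by separate chains of enzymes whose genes are largely under shared control. A set of 35 mouse genes of these chains was followed here, listed by symbol for their place in mevalonate and sterol synthesis, SREBP control or fatty acid synthesis. Of the 35, 34 had at least 1 transcript cluster (the array's unit for a gene) annotated with a single symbol, among 19935 genes tested in all, and Acat2, which encodes an acetoacetyl-CoA thiolase, was not analysed here. The sterol branch held 18 measured genes, namely 7 of the mevalonate steps and 11 of the steps from squalene synthesis to cholesterol. The fatty acid branch held 10, and 5 genes of the regulatory machinery and the sterol carrier Stard4 completed the set.

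The cells were mouse embryonic stem cells (ESCs). The mutant cells are labelled Bmpr1a-/-, which means that both copies of the gene for a type I receptor of bone morphogenetic proteins are disrupted, and the controls are wild-type E14 cells, a widely used ESC line. The 11 arrays form 4 groups: mutant after 3 days in N2B27 (n = 3), control after 3 days in N2B27 (n = 3), mutant kept in ESC medium (n = 2, whose numbers are 2 and 3) and control kept in ESC medium (n = 3). N2B27 is a serum-free medium used to let ESCs differentiate. The labels list C1-6, Fr124 and Fr88 as mutant lines without saying which array carries which line, so genotype and cell line cannot be told apart. Replicate 1 of the mutant cells in ESC medium was not analysed here. No source says whether arrays of 1 group came from separate cultures, and the spread behind each p-value may therefore be technical. The labels give no composition for the ESC medium, and medium and differentiation differ together between the groups. In bulk RNA, fewer cells of a type and less RNA per cell cannot be told apart.

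All values are log2 expression levels that the authors had centred gene by gene, so a value of 0 is a baseline of that gene and levels cannot be set between genes. The centring also means that the presence of ESC markers cannot be checked in absolute terms. As relative levels, 10 of 10 pluripotency markers fell in N2B27 in each genotype. Their mean per array lay between -0.48 and -0.23 in mutant N2B27 cultures, -1.15 and -0.84 in control N2B27 cultures, 1.51 and 1.52 in mutant ESC-medium cultures and 1.12 and 1.44 in control ESC-medium cultures. Bmpr1a itself ranged over -0.14 to 0.15 in mutant and 0.61 to 0.76 in control N2B27 arrays, a difference of -0.70 (SE 0.09, adjusted p = 0.00211). In ESC medium it ranged over -0.03 to 0.00 in mutant and 0.16 to 0.37 in control arrays, a difference of -0.27 (SE 0.10, adjusted p = 0.145) that did not pass the threshold. Whether the probes lie in the deleted part of the gene is not given.

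In the sterol branch, acetyl-CoA is turned into mevalonate and then into isoprenoid units, which are joined to squalene. Squalene is oxidised, closed into the ring system of lanosterol and trimmed to cholesterol. In the fatty acid branch, acetyl-CoA is carboxylated to malonyl-CoA, which fatty acid synthase extends to saturated chains that elongases and desaturases then modify. Transcription of both branches is driven by the sterol regulatory element-binding proteins (SREBPs) made from Srebf1 and Srebf2. The escort protein Scap carries them from the endoplasmic reticulum to the Golgi for cleavage, and Insig1 and Insig2 retain Scap when sterols are plentiful. The Srebf2 product acts mainly on sterol genes, a product of Srebf1 mainly on fatty acid genes, and Insig1 is itself a target.

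The promoters of 28 of the 35 genes, 27 of them measured, were listed in the RefSeq promoter table of assembly GRCm38.p6. The 250 bases before each listed start were searched on both strands for letters that SREBPs and the factors acting with them are known to bind. The sterol regulatory element searched was TCACNCCAC, and the other letters were the CCAAT box CCAAT bound by NF-Y, the E-box CACGTG and the GC box GGGCGG bound by Sp1. The promoters below were chosen because they belong to genes whose values are described further on: Hmgcs1 and Cyp51 changed with the medium in both genotypes, Msmo1 and Insig1 differed between the genotypes in N2B27, and Fads2 is a fatty acid gene that changed with the medium. Capitals mark matches to any of the letters searched, on either strand, and each sequence runs 5′ to 3′ along the strand of its gene and ends at the base before the start.
Hmgcs1 (chr13:119690101-119690350, plus strand): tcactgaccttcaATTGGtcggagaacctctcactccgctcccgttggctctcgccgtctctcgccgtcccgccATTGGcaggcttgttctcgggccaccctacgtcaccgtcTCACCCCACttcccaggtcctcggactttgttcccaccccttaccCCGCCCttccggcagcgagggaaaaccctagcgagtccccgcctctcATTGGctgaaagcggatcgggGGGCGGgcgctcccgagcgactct
Cyp51 (chr5:4104698-4104947, minus strand): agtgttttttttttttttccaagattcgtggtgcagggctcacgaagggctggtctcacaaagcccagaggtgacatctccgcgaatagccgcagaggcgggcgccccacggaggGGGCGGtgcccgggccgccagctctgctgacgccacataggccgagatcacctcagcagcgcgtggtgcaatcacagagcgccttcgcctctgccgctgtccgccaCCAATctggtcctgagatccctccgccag
Msmo1 (chr8:64733579-64733828, minus strand): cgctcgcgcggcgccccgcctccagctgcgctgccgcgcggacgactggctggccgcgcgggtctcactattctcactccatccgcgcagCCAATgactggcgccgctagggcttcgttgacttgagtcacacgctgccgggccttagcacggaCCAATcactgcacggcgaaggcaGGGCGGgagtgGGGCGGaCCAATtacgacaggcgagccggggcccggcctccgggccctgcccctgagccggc
Insig1 (chr5:28071162-28071411, plus strand): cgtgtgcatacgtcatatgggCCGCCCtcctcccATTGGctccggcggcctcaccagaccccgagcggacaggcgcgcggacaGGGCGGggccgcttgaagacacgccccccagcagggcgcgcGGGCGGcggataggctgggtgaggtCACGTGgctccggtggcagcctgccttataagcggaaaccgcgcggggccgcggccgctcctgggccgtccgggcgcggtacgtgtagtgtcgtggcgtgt
Fads2 (chr19:10101504-10101753, minus strand): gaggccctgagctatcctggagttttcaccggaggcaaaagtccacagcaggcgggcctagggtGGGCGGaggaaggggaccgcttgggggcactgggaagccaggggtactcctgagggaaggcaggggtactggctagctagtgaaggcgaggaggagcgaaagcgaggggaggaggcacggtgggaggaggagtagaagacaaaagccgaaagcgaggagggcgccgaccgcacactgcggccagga

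Hmgcs1 was the only 1 of the 27 measured genes with a match to TCACNCCAC, against 1.22% of all 27025 genes in the table, and its match began 137 bases before the start. A CCAAT box stood before 22 of 27 genes (81.5%), against 37.5% of all genes. The branches differed in this feature as listed: 15 of 15 sterol genes and 3 of 7 fatty acid genes held it. The Fads2 window printed here has a GC box and no CCAAT box, while the Hmgcs1 and Msmo1 windows have 3 CCAAT boxes each. A GC box was found for 22 of 27 and 35.4% of all genes, and an E-box for 5 of 27 and 6.86% of all genes. These matches describe letters in a short window and were not tested for binding.

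Many of these genes were higher after 3 days in N2B27 than in ESC medium, in both genotypes. In mutant cells 15 of the 34 genes rose and 1, Ebp, fell between N2B27 and ESC medium, where 14.9% of all genes tested rose and 10.3% fell. In control cells 9 rose and 1, again Ebp, fell, where 12.8% of all genes rose and 13.3% fell. Of these genes, 8 rose in both comparisons, 53.3% of those that rose in mutant cells and 88.9% of those that rose in control cells. The comparisons share no arrays, but both follow the same change of medium. The same overlap was not counted over all genes, so it is not read as particular to this set. The 8 were the mevalonate genes Hmgcs1 and Fdps, the sterol gene Cyp51, the regulator Srebf2, the carrier Stard4 and the desaturases Scd1, Fads1 and Fads2. Every call is an adjusted p under 0.05 in limma over all genes tested. With the replicate number as a block, 13 genes were called higher and 2 lower in control cells: Cyp51 was lost, Pmvk, Mvd, Tm7sf2, Insig1 and Acss2 were gained as higher, and Hsd17b7 as lower. The shares of all genes called with the block were not counted. Pluripotency markers fell in the same comparisons, and mean fibroblast markers per array lay between -0.03 and 0.31 in mutant N2B27 and -0.54 and -0.47 in mutant ESC-medium cultures, and between 0.19 and 0.52 in control N2B27 and 0.02 and 0.14 in control ESC-medium cultures. Their part in the changes of the lipid genes was not tested.

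**Figure D1:**
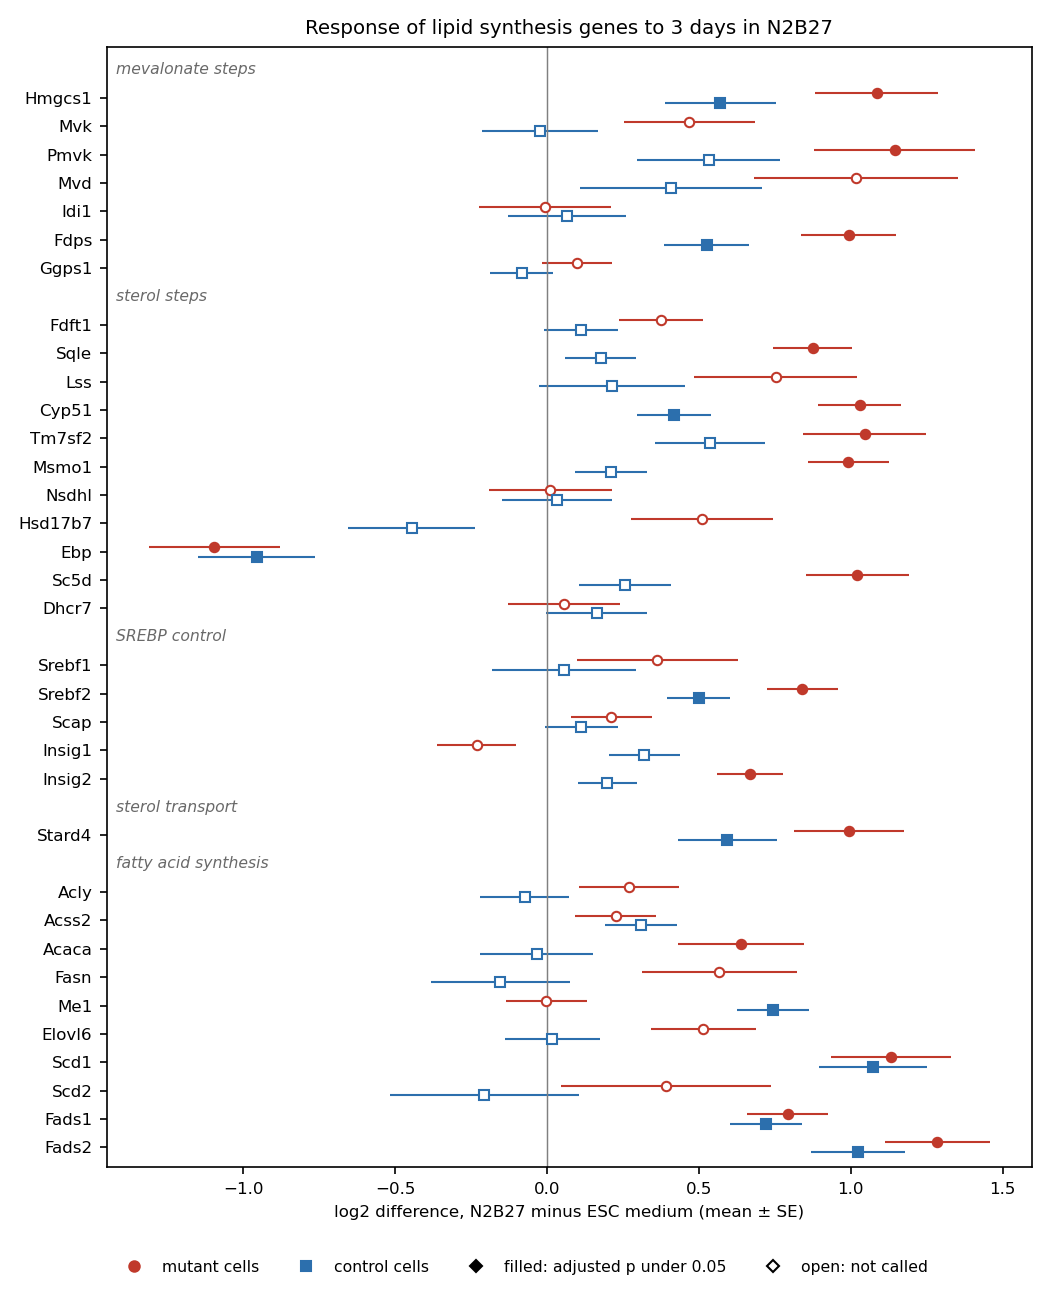
Difference between N2B27 and ESC medium for the 34 measured genes, in log2 units (mean ± SE from the limma fit), with mutant cells as red circles and control cells as blue squares. Filled symbols passed adjusted p under 0.05. Most sterol genes lie right of 0, with most mutant circles further right than control squares, while Ebp lies left of 0 in both genotypes.

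Among the mevalonate genes, Hmgcs1, which encodes the HMG-CoA synthase early in the sterol branch, stood at -0.04, 0.61 and 0.44 in mutant N2B27 arrays and at -0.80 and -0.69 in mutant ESC-medium arrays. In control cells it stood at 0.00, 0.55 and 0.45 in N2B27 and at -0.45, -0.12 and -0.13 in ESC medium. The N2B27 arrays lay above the ESC-medium arrays in both genotypes without overlap. Its difference was 1.09 (SE 0.20, adjusted p = 0.00317) in mutant cells, a 2.12-fold higher level in N2B27, and 0.57 (SE 0.18, adjusted p = 0.0427) in control cells, where the call was lost in 8 of the 11 fits that each left out 1 array (adjusted p up to 0.146). It remained past the threshold only without control N2B27 array 1 or mutant N2B27 array 1 or 2.

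Fdps, whose product joins isoprenoid units into farnesyl diphosphate, behaved alike in direction. It read 0.19, 0.70 and 0.52 in mutant N2B27 and -0.60 and -0.45 in mutant ESC-medium arrays, a difference of 0.99 (SE 0.16, adjusted p = 0.00120). Control arrays read 0.00, 0.34 and 0.31 in N2B27 and -0.47, -0.26 and -0.19 in ESC medium, a difference of 0.53 (SE 0.14, adjusted p = 0.0192). The groups did not overlap in either genotype, and the control call was lost without ESC-medium array 1 or N2B27 array 2 or 3 (adjusted p up to 0.0727).

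Pmvk encodes phosphomevalonate kinase, which adds a further phosphate to the product of mevalonate kinase. Its mutant arrays read 0.22, 1.22 and 0.76 in N2B27 against -0.55 and -0.28 in ESC medium, and it rose by 1.14 (SE 0.26, adjusted p = 0.00975). Leaving out mutant ESC-medium array 2 ended this call (adjusted p = 0.0945). In control cells -0.18, 0.47 and 0.41 in N2B27 stood beside -0.42, -0.22 and -0.25 in ESC medium, and the difference of 0.53 (SE 0.24, adjusted p = 0.139) did not pass. Mvd, the decarboxylase that yields isopentenyl diphosphate, differed by 1.02 (SE 0.34, adjusted p = 0.0508) in mutant cells, just outside the threshold, and by 0.41 (SE 0.30, adjusted p = 0.411) in control cells. Mvk (mevalonate kinase), Idi1 (the isomerase of the isoprenoid units) and Ggps1, which makes the geranylgeranyl groups attached to proteins, had differences between -0.01 and 0.47 in mutant cells and between -0.08 and 0.07 in control cells, none past the threshold.

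Of the 11 genes from squalene synthesis onward, 5 rose and 1 fell in mutant cells, and 1 rose and 1 fell in control cells. Sqle encodes squalene epoxidase, a rate-limiting step. It read 0.10, 0.48 and 0.11 in mutant N2B27 and -0.67 and -0.62 in mutant ESC-medium arrays, and rose by 0.87 (SE 0.13, adjusted p = 0.000869). Control arrays overlapped, at -0.11, 0.22 and 0.14 in N2B27 and 0.00, -0.12 and -0.16 in ESC medium, with a difference of 0.18 (SE 0.12, adjusted p = 0.342).

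Cyp51, the lanosterol demethylase, stood at 0.21, 0.48 and 0.33 in mutant N2B27 and at -0.82 and -0.56 in mutant ESC-medium arrays. Control arrays stood at -0.13, 0.05 and 0.33 in N2B27 and at -0.23, -0.38 and -0.39 in ESC medium. The media did not overlap in either genotype. Cyp51 rose by 1.03 (SE 0.14, adjusted p = 0.000482) in mutant and by 0.42 (SE 0.12, adjusted p = 0.0300) in control cells. With the replicate number as a block the control call was lost (adjusted p = 0.0669), as it was without any of 4 control arrays (ESC medium 2 or 3, N2B27 2 or 3; adjusted p up to 0.105).

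Tm7sf2, a sterol reductase that acts after Cyp51, read -0.02, 0.78 and 0.63 in mutant N2B27 arrays and -0.75 and -0.42 in mutant ESC-medium arrays. It rose by 1.05 (SE 0.20, adjusted p = 0.00381). Without mutant ESC-medium array 2 the call was lost (adjusted p = 0.0543). In control cells 0.15, 0.26 and 0.20 in N2B27 lay above -0.25, -0.49 and -0.26 in ESC medium, with a difference of 0.54 (SE 0.18, adjusted p = 0.0532) that missed the threshold narrowly and passed it with the replicate block (adjusted p = 0.0120).

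Msmo1 encodes a methyl sterol oxidase that acts in the removal of methyl groups from the ring. Mutant arrays read 0.48, 0.76 and 0.58 in N2B27 and -0.52 and -0.25 in ESC medium, with a rise of 0.99 (SE 0.13, adjusted p = 0.000493). Control arrays read -0.35, 0.05 and 0.02 in N2B27 and -0.31, -0.36 and -0.24 in ESC medium, where the difference was 0.21 (SE 0.12, adjusted p = 0.255). Sc5d, a sterol desaturase near the end of the chain, had 0.00, 0.62 and 0.14 in mutant N2B27 and -0.91 and -0.63 in mutant ESC-medium arrays, a rise of 1.02 (SE 0.17, adjusted p = 0.00157). Its control arrays stood at -0.08, 0.03 and -0.05 in N2B27 and -0.09, -0.40 and -0.38 in ESC medium, with a difference of 0.26 (SE 0.15, adjusted p = 0.279).

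Ebp, a sterol isomerase encoded on the X chromosome, was the 1 gene of the branch that fell. It read 0.00, 0.66 and 0.11 in mutant N2B27 against 1.35 and 1.35 in mutant ESC-medium arrays. In control cells it read -0.60, -0.27 and -0.13 in N2B27 against 0.95, 0.47 and 0.45 in ESC medium. All N2B27 arrays lay below the ESC-medium arrays of their genotype. The level dropped by 1.10 (SE 0.22, adjusted p = 0.00417) in mutant cells and by 0.96 (SE 0.19, adjusted p = 0.00488) in control cells, and both calls held in every alternative that tested the gene. The remaining sterol genes Fdft1 (squalene synthase), Lss (lanosterol synthase), Nsdhl and Hsd17b7 (removal of methyl groups) and Dhcr7 (the final reductase) ranged in difference over 0.01 to 0.75 in mutant cells and -0.45 to 0.21 in control cells, none called.

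**Figure D2:**
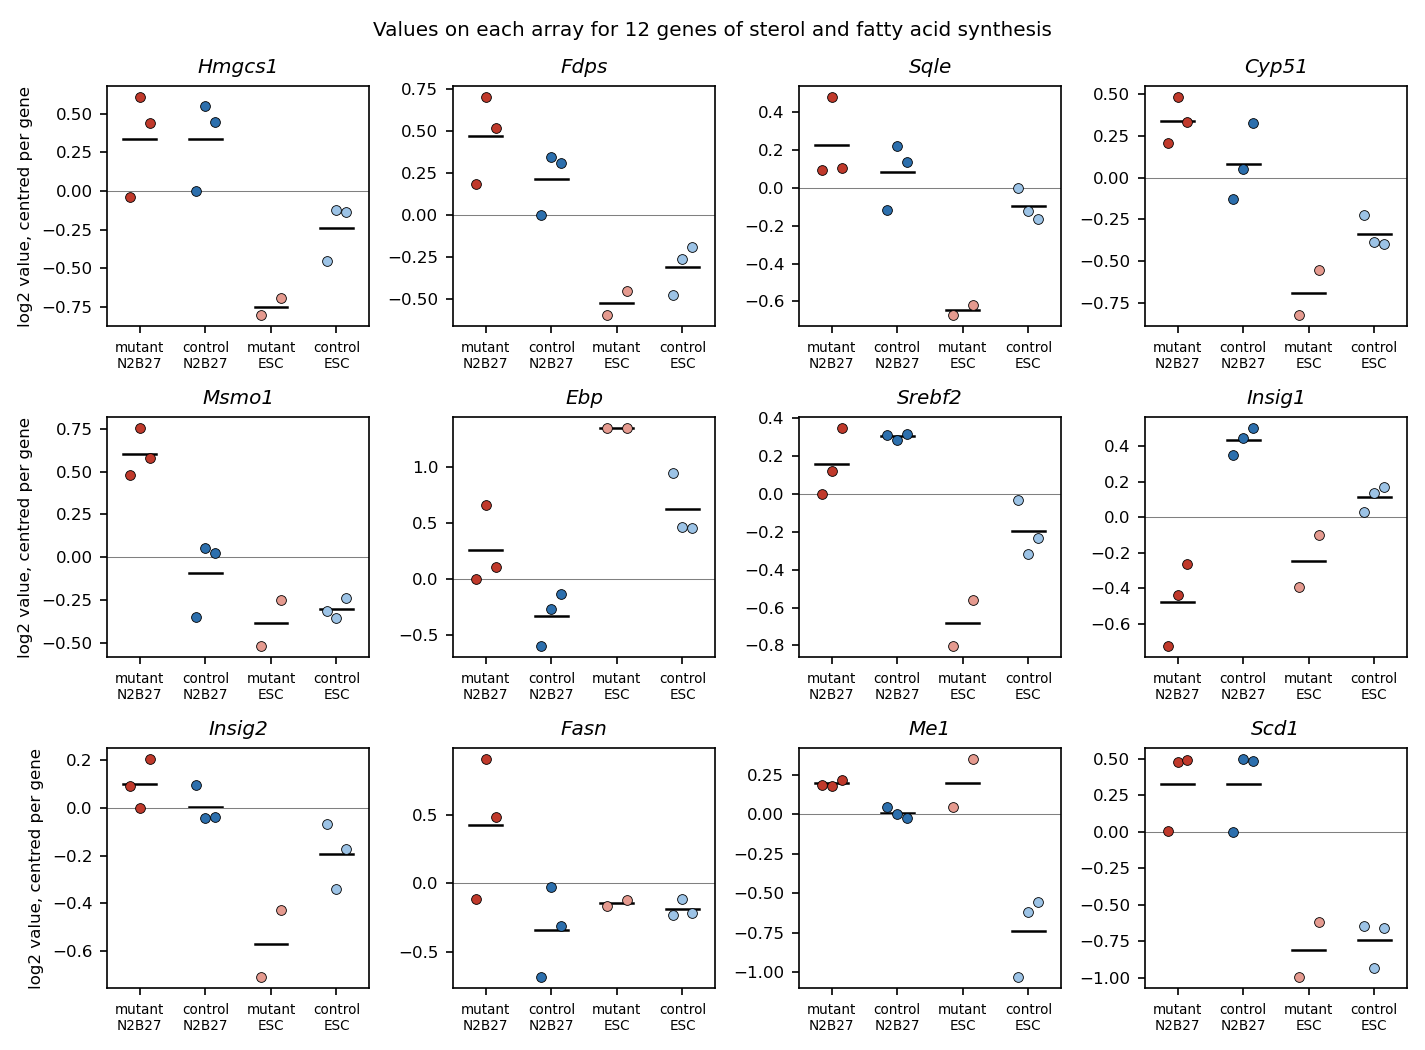
Log2 value, centred per gene, on each array for 12 genes, with mutant N2B27, control N2B27, mutant ESC-medium and control ESC-medium arrays from left to right and the group mean as a bar. Hmgcs1, Fdps, Cyp51 and Scd1 stand higher in N2B27 in both genotypes, Ebp stands lower, and Insig1 is lower on all mutant than on all control N2B27 arrays.

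The SREBP machinery changed in part. Srebf2 read 0.00, 0.12 and 0.35 in mutant N2B27 and -0.81 and -0.56 in mutant ESC-medium arrays. Control arrays read 0.31, 0.29 and 0.32 in N2B27 and -0.03, -0.32 and -0.23 in ESC medium, again without overlap between media. It rose by 0.84 (SE 0.12, adjusted p = 0.000618) in mutant and by 0.50 (SE 0.11, adjusted p = 0.00612) in control cells, in every alternative tried. Srebf1, at -0.34, 0.69 and 0.29 in mutant N2B27 and -0.18 and -0.12 in mutant ESC-medium arrays, had overlapping control arrays at -0.48, 0.00 and 0.04 in N2B27 and 0.08, -0.35 and -0.34 in ESC medium. Its differences of 0.36 (SE 0.27, adjusted p = 0.404) in mutant and 0.06 (SE 0.24, adjusted p = 0.924) in control cells did not pass.

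Insig2 stood at 0.09, 0.00 and 0.20 in mutant N2B27 and -0.71 and -0.43 in mutant ESC-medium arrays and rose by 0.67 (SE 0.11, adjusted p = 0.00139). In control cells it stood at 0.09, -0.04 and -0.04 in N2B27 and -0.07, -0.34 and -0.17 in ESC medium, a difference of 0.20 (SE 0.10, adjusted p = 0.178). Scap read -0.000609, 0.33 and 0.19 in mutant N2B27, 0.03, -0.03 and -0.14 in control N2B27, 0.00 and -0.08 in mutant ESC-medium and 0.09, -0.19 and -0.38 in control ESC-medium arrays. Its arrays overlapped between media in each genotype, with differences of 0.21 in mutant and 0.11 in control cells and no call. Insig1 is described with the genotypes; its medium differences were -0.23 (SE 0.13, adjusted p = 0.258) in mutant and 0.32 (SE 0.12, adjusted p = 0.0722) in control cells, the second called with the replicate block (adjusted p = 0.0102).

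Stard4, which carries sterol between membranes, read 0.05, 0.58 and 0.49 in mutant N2B27 and -0.81 and -0.44 in mutant ESC-medium arrays. Control arrays read 0.01, 0.41 and 0.43 in N2B27 and -0.41, -0.19 and -0.34 in ESC medium. N2B27 arrays lay above ESC-medium arrays throughout, and the rise was 0.99 (SE 0.18, adjusted p = 0.00272) in mutant and 0.59 (SE 0.16, adjusted p = 0.0219) in control cells. The control call was lost without any of 4 control arrays, ESC medium 1 or 3 or N2B27 2 or 3 (adjusted p up to 0.0814).

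In the fatty acid branch, the genes that rose in both genotypes were desaturases. Scd1 puts the double bond into saturated chains. It read 0.00, 0.48 and 0.49 in mutant N2B27 and -0.999 and -0.62 in mutant ESC-medium arrays, a rise of 1.13 (SE 0.20, adjusted p = 0.00212). Control arrays read 0.00, 0.50 and 0.49 in N2B27 and -0.65, -0.93 and -0.66 in ESC medium, a rise of 1.07 (SE 0.18, adjusted p = 0.00162). Its close paralog Scd2 was not called, with -0.57, 0.45 and 0.14 in mutant N2B27, -0.99, 0.17 and 0.03 in control N2B27, -0.52 and -0.25 in mutant ESC-medium and 0.06, -0.08 and -0.14 in control ESC-medium arrays. The media overlapped for Scd2 and its differences, 0.39 (SE 0.35, adjusted p = 0.507) in mutant and -0.21 (SE 0.31, adjusted p = 0.737) in control cells, did not pass; how far the probes of these paralogs share sequence was not checked.

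Fads1 and Fads2 encode desaturases of polyunsaturated chains and lie near each other on chromosome 19. Fads2 stood at 0.00, 0.61 and 0.29 in mutant N2B27 and -1.11 and -0.86 in mutant ESC-medium arrays, and at -0.15, 0.25 and 0.28 in control N2B27 and -0.87, -0.93 and -0.89 in control ESC-medium arrays. It rose by 1.29 (SE 0.17, adjusted p = 0.000515) in mutant cells, 2.44-fold and the largest difference among the 34 genes in that comparison, and by 1.02 (SE 0.16, adjusted p = 0.00106) in control cells. Fads1 stood at 0.16, 0.53 and 0.43 in mutant N2B27 and -0.53 and -0.31 in mutant ESC-medium arrays, and at -0.20, 0.11 and 0.11 in control N2B27 and -0.59, -0.78 and -0.77 in control ESC-medium arrays, and rose by 0.79 (SE 0.13, adjusted p = 0.00170) in mutant and 0.72 (SE 0.12, adjusted p = 0.00162) in control cells. For Scd1, Fads1 and Fads2 the media did not overlap in either genotype, and their calls held in every alternative.

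Of the enzymes that supply and extend the chains, Acaca was called in mutant cells and Me1 in control cells. Acaca, the acetyl-CoA carboxylase, read -0.13, 0.38 and 0.33 in mutant N2B27 and -0.46 and -0.44 in mutant ESC-medium arrays. It rose by 0.64 (SE 0.21, adjusted p = 0.0462), a call that lay close to the threshold and was lost with the cluster of largest variance in place of the mean of its clusters and in 7 fits that left out 1 array: mutant ESC medium 2 or 3, mutant N2B27 2 or 3, control ESC medium 2 or 3, or control N2B27 3 (adjusted p up to 0.193). Control arrays overlapped at -0.73, -0.04 and -0.13 in N2B27 and -0.45, -0.21 and -0.15 in ESC medium, with a difference of -0.03 (SE 0.18, adjusted p = 0.941). Fasn, the synthase itself, had -0.11, 0.91 and 0.49 in mutant N2B27 and -0.16 and -0.12 in mutant ESC-medium arrays, and -0.69, -0.03 and -0.31 in control N2B27 and -0.23, -0.11 and -0.22 in control ESC-medium arrays. Its differences were 0.57 (SE 0.26, adjusted p = 0.148) in mutant and -0.15 (SE 0.23, adjusted p = 0.733) in control cells. Acly and Acss2, which make acetyl-CoA, and Elovl6, an elongase, had differences of 0.27, 0.23 and 0.51 in mutant and -0.07, 0.31 and 0.02 in control cells, none called.

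Me1 encodes cytosolic malic enzyme, a source of the NADPH that chain synthesis uses. In control cells it rose, reading 0.05, -0.00182 and -0.03 in N2B27 and -1.03, -0.62 and -0.56 in ESC medium, a difference of 0.74 (SE 0.12, adjusted p = 0.00140). Mutant arrays overlapped at 0.19, 0.18 and 0.22 in N2B27 and 0.04 and 0.35 in ESC medium, with a difference of -0.00223 (SE 0.13, adjusted p = 0.994). The test of the difference between these responses gave -0.75 (SE 0.18, adjusted p = 0.0664), outside the threshold.

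Over the branches, the median difference between N2B27 and ESC medium in mutant cells was 0.81 for the 18 sterol genes and 0.54 for the 10 fatty acid genes, beside 0.010 for all genes tested. Without mutant N2B27 array 2 the fatty acid median in mutant cells was 0.35. In control cells the medians were 0.19 for sterol and 0.16 for fatty acid genes, beside 0.018 for all genes. Without control N2B27 array 1 these medians were 0.32 for sterol and 0.28 for fatty acid genes, and without control N2B27 array 2 the sterol median was 0.10. By count, 8 of 18 sterol and 4 of 10 fatty acid genes rose in mutant cells, and 3 of 18 and 4 of 10 rose in control cells. The difference between the branches was not tested.

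**Figure D3:**
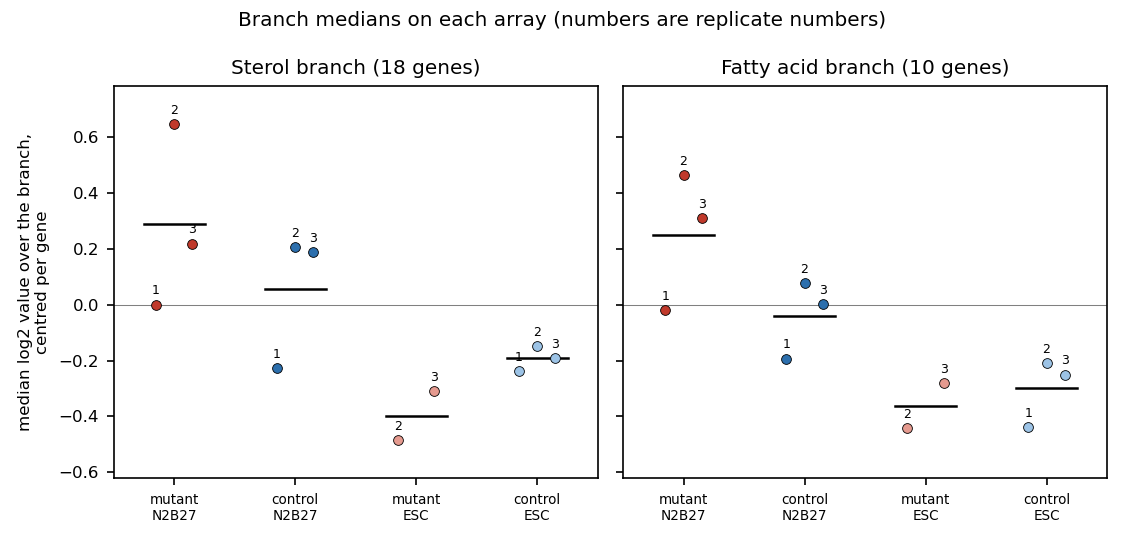
Median log2 value (centred per gene) of the 18 sterol genes (left) and the 10 fatty acid genes (right) on each array, with the replicate number beside each point and the group mean as a bar. Sterol medians lie between 0.00 and 0.65 on mutant N2B27 arrays, between -0.23 and 0.21 on control N2B27 arrays, between -0.49 and -0.31 on mutant ESC-medium arrays and between -0.24 and -0.15 on control ESC-medium arrays.

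In N2B27, most of the genes ranked the arrays of a group alike. Replicate 1 held the lowest value for 30 of 34 genes among the mutant arrays and for 29 of 34 among the control arrays, and replicate 2 held the highest for 26 and 21. The same shares were not counted over all genes. Medians over all genes were -0.032, 0.047 and 0.0097 on mutant N2B27 arrays 1, 2 and 3. On the control N2B27 arrays they were 0.011, 0.0089 and 0.0017. The sterol median was 0.00, 0.65 and 0.22 on mutant N2B27 arrays 1, 2 and 3, and -0.23, 0.21 and 0.19 on the control N2B27 arrays of the same numbers. Fatty acid medians were -0.02, 0.46 and 0.31 on the mutant and -0.19, 0.08 and 0.0026 on the control N2B27 arrays. Mutant N2B27 array 2 also deviated most from its group mean over all genes, with a root mean square of 0.185 beside 0.0774 to 0.155 for the other arrays. Since same-numbered arrays deviated together over all genes, the fit with the number as a block is given beside the comparisons that have 3 such pairs and beside the interaction.

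In N2B27 the mutant cells differed from control cells in few of these genes by the call. Msmo1 was higher and Insig1 lower, 1 gene each, where 4.1% of all genes tested were higher and 1.64% lower in mutant cells. Insig1 read -0.73, -0.44 and -0.26 in mutant and 0.35, 0.45 and 0.50 in control N2B27 arrays, so every mutant array lay below every control array. The level dropped by 0.91 (SE 0.12, adjusted p = 0.00270), 1.88-fold higher in control cells, and the call held in all 19 alternatives. In ESC medium Insig1 read -0.39 and -0.10 in mutant and 0.03, 0.14 and 0.17 in control arrays, a difference of -0.36 (SE 0.13, adjusted p = 0.170).

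Msmo1 was 0.70 (SE 0.12, adjusted p = 0.00994) higher in mutant N2B27 arrays, which read 0.48, 0.76 and 0.58, than in control N2B27 arrays, which read -0.35, 0.05 and 0.02, and the groups did not overlap. The call was lost when the compared groups were fitted alone (adjusted p = 0.0509). Msmo1 lies on chromosome 8, where the median genotype difference over 955 genes was 0.17 in N2B27 and 25.5% of genes were called, against -0.0047 and 4.43% on the other autosomes. In ESC medium Msmo1 differed by -0.08 (SE 0.13, adjusted p = 0.868), where the chromosome 8 median was 0.12. The part of the chromosome in the result was not tested.

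With the replicate number as a block, 8 genes were called higher in mutant N2B27 cells and Insig1 alone lower. The shares of all genes called in that fit were not counted, so these counts are not read as particular to this set. Besides Msmo1 these were the mevalonate genes Mvd (0.88, adjusted p = 0.0225) and Pmvk (0.50, adjusted p = 0.0469), the sterol gene Nsdhl (0.69, adjusted p = 0.0266) and 4 genes of fatty acid synthesis. These last genes were Fasn (0.77, adjusted p = 0.0131), Acaca (0.49, adjusted p = 0.0261), Acly (0.41, adjusted p = 0.0363) and Fads1 (0.37, adjusted p = 0.0459). Without the block their adjusted p lay between 0.0545 for Nsdhl and 0.290 for Pmvk. Fasn was higher in mutant than in control arrays of the same number in each of the 3 pairs, although the groups as wholes overlapped. Mvd lies on chromosome 8 and Nsdhl on the X chromosome, whose median genotype difference in N2B27 was 0.026. Of the X-linked genes 11.9% were called in that comparison, against 4.43% on the other autosomes. The part of these chromosomes in the values was not tested.

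**Figure D4:**
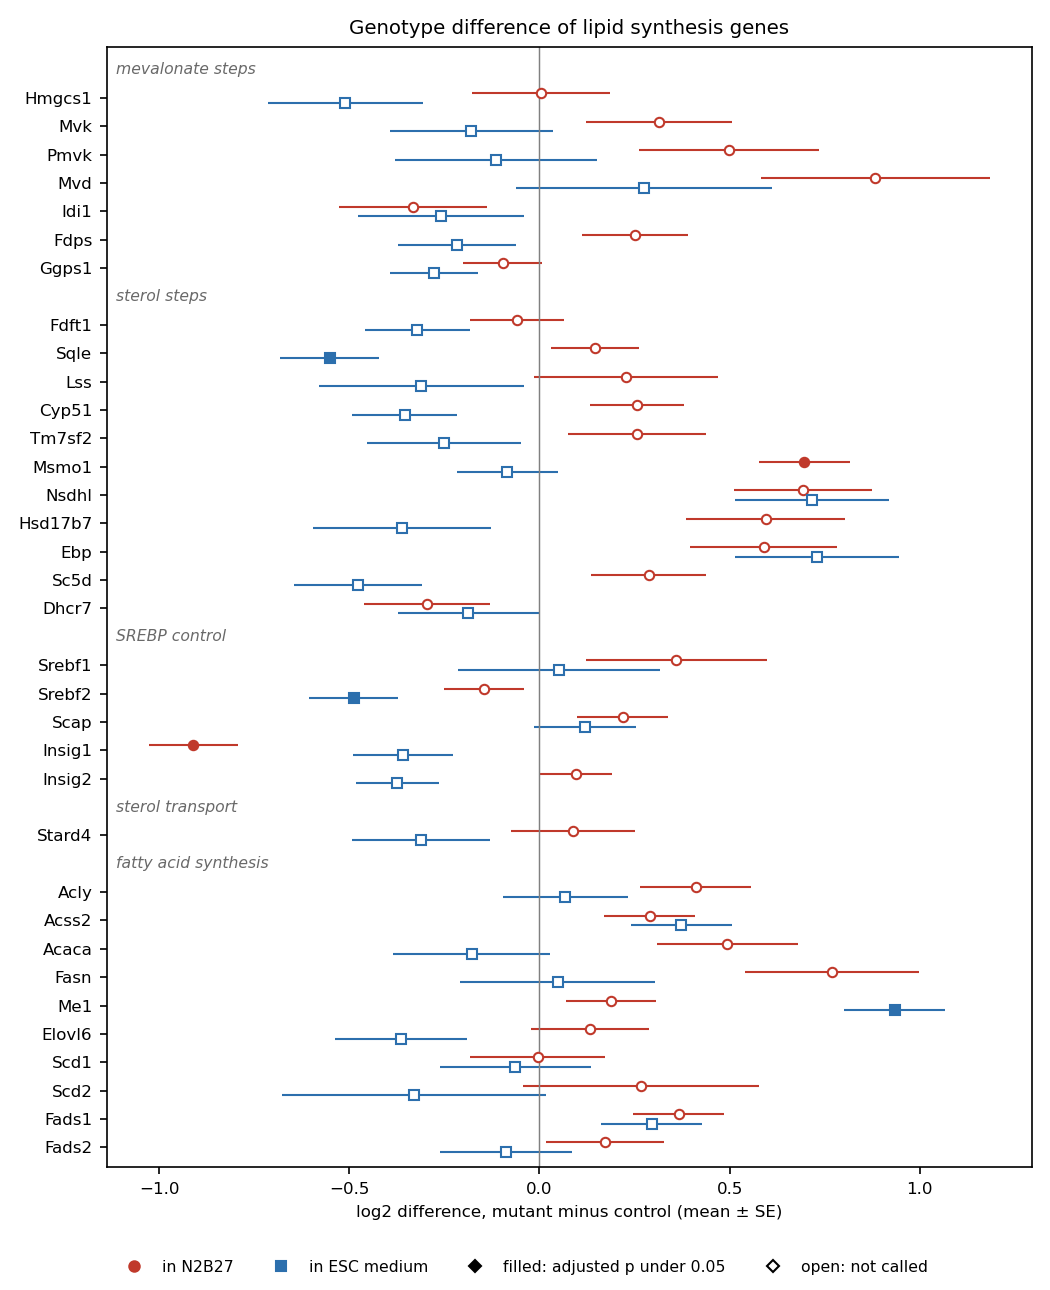
Difference between mutant and control cells for the 34 measured genes, in log2 units (mean ± SE from the limma fit), with N2B27 as red circles and ESC medium as blue squares. Filled symbols passed adjusted p under 0.05, which in N2B27 were Msmo1 (0.70) and Insig1 (-0.91) and in ESC medium were Sqle (-0.55), Srebf2 (-0.49) and Me1 (0.93).

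The median difference between mutant and control cells in N2B27 was 0.26 over the sterol genes and 0.28 over the fatty acid genes, beside -0.0010 over all genes. The sterol median was 0.10 without mutant N2B27 array 2, 0.16 without control N2B27 array 1 and 0.45 without mutant N2B27 array 1, and the fatty acid median was 0.44 without that last array. Some members did not differ beyond their spread: Hmgcs1 differed by 0.00 (SE 0.18, adjusted p = 0.997) with a 95% interval from -0.40 to 0.41, and Scd1 by -0.01 (SE 0.18, adjusted p = 0.996) with an interval from -0.40 to 0.39. Some markers of cell types were called in this comparison, beside 4.1% of all genes higher and 1.64% lower. In mutant N2B27 cells 4 of 10 pluripotency and 2 of 10 neural progenitor markers were higher. Lower were 1 of 11 fibroblast and 1 of 13 endoderm markers. The fibroblast call, Col1a2, was lost under 9 of 19 alternatives and the endoderm call, Dab2, under 13. Of the neural list, 4 of 10 genes lay below 0, with a median of 0.04. Among the markers called higher, Zfp42 and Tubb3 lie on chromosome 8, where 25.5% of genes were called. The part of the chromosome in these calls, and of the markers in the values of the lipid genes, was not tested.

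In ESC medium, 1 of the 34 genes was higher and 2 were lower in mutant cells, where 3.09% of all genes were higher and 3.05% lower. Me1 read 0.04 and 0.35 in mutant and -1.03, -0.62 and -0.56 in control arrays, without overlap, and was higher by 0.93 (SE 0.13, adjusted p = 0.00320), 1.91-fold, in every alternative. Sqle read -0.67 and -0.62 in mutant and 0.00, -0.12 and -0.16 in control arrays and fell by 0.55 (SE 0.13, adjusted p = 0.0337). Srebf2 read -0.81 and -0.56 in mutant and -0.03, -0.32 and -0.23 in control arrays and fell by 0.49 (SE 0.12, adjusted p = 0.0370). The Sqle call was lost without any 1 of 6 arrays (each control and mutant ESC-medium array, or control N2B27 array 3; adjusted p up to 0.233) and the Srebf2 call in 9 alternatives (adjusted p up to 0.329), namely with the compared groups alone and without any 1 of the control arrays or of the mutant ESC-medium arrays.

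Of the 18 sterol genes in ESC medium, 15 lay below 0, with a median of -0.26, beside -0.0076 for the fatty acid genes and -0.0085 for all genes. Over all genes tested, 10555 of 19935 lay below 0. The fatty acid median took either sign on leaving out 1 array, from -0.08 without mutant ESC-medium array 3 to 0.08 without mutant ESC-medium array 2. The 3 sterol genes above 0 were Mvd, at 0.27, on chromosome 8, and Nsdhl, at 0.72, and Ebp, at 0.73, both on the X chromosome. None of the 3 was called. The median over 739 X-linked genes was 0.09 and 23.5% of them were called, against -0.015 and 4.88% on the other autosomes. Of the fibroblast markers 4 of 11 were lower in mutant cells, where 3.05% of all genes were. These were Tagln at -2.23, Acta2 at -1.88, Col1a1 at -1.32 and Col1a2 at -0.73. The mean of the list per array lay between -0.54 and -0.47 in mutant and 0.02 and 0.14 in control ESC-medium arrays. The fibroblast list had a median difference of -0.08, and 4 of its 11 genes lay above 0. Called higher in mutant cells, beside 3.09% of all genes, were 2 of 10 pluripotency markers, Zfp42 at 0.88 and Klf4 at 0.64. So were 2 of 10 neural progenitor markers, Tubb3 at 1.18 and Ncam1 at 0.94, and 1 of 13 endoderm markers, Hnf4a at 0.90. These 5 calls were all lost without mutant ESC-medium array 2 (adjusted p from 0.0504 for Hnf4a to 0.323 for Zfp42). The neural list as a whole had a median of 0.04, and 4 of its 10 genes lay below 0. Its lowest value was that of Nes, at -0.84 and not called. Zfp42 and Tubb3 lie on chromosome 8, where 16.8% of genes were called in this comparison. The part of the chromosome in these 2 calls was not tested. The part of these markers in the values of the lipid genes was not tested.

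The medium response of mutant cells minus that of control cells is the interaction, which uses all 4 groups and shares its arrays with every comparison above. None of the 34 genes was called in it by limma, where 2.12% of all genes were, and 10 had an unadjusted p under 0.05, where 13.7% of all genes did. The median was 0.51 over the sterol genes, 0.30 over the fatty acid genes and 0.0071 over all genes. The fatty acid median was 0.16 without mutant N2B27 array 2 or without control N2B27 array 1. The genes nearest the threshold were Msmo1, at 0.78 (SE 0.18, adjusted p = 0.0580), Me1, at -0.75 (SE 0.18, adjusted p = 0.0664), and Sqle, at 0.70 (SE 0.17, adjusted p = 0.0800). With the replicate block, 4 genes were called, all higher: Acaca (0.83, adjusted p = 0.0154), Hmgcs1 (0.67, adjusted p = 0.0226), Msmo1 (0.85, adjusted p = 0.0274) and Fdps (0.58, adjusted p = 0.0361). The share of all genes called in this block fit was not counted.

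Genes of neighbouring pathways, from lists drawn up alongside the members, are set here beside the shares of all genes tested, of which 14.9% rose and 10.3% fell in mutant cells and 12.8% rose and 13.3% fell in control cells. Of 8 genes of sterol uptake and other sterol handling, 5 rose in mutant and 4 in control cells and none fell. Scarb1, a lipoprotein receptor, rose by 0.95 (SE 0.14, adjusted p = 0.000835) in mutant and 0.97 (SE 0.12, adjusted p = 0.000430) in control cells, and Lrp8, a receptor of the same family as the low-density lipoprotein receptor, rose by 1.18 (SE 0.20, adjusted p = 0.00200) in mutant cells. Npc1 and Npc2, which release cholesterol from lysosomes, rose by 0.88 and 0.70 in mutant and by 1.41 and 0.61 in control cells, the mutant calls being lost without mutant ESC-medium array 2, and that of Npc1 also without mutant ESC-medium array 3 or mutant N2B27 array 1 or 3 (adjusted p up to 0.106). Of 9 genes of sterol export, 3 rose and 1 fell in mutant cells, and 2 rose and 1 fell in control cells. The exporters Abca1 and Abcg1 went opposite ways: Abca1 dropped by 0.83 in mutant and 0.85 in control cells, while Abcg1 rose by 1.16 in mutant and 0.81 in control cells.

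Of 26 further genes of fatty acid synthesis and activation, 8 rose and 1 fell in mutant cells, and 5 rose and 2 fell in control cells, again beside 14.9% and 10.3% of all genes in mutant and 12.8% and 13.3% in control cells. Acsl4, which activates polyunsaturated fatty acids, rose by 1.16 (SE 0.10, adjusted p = 4.24e-05) in mutant and 0.77 (SE 0.09, adjusted p = 0.000215) in control cells. Idh1, another source of NADPH, rose by 0.89 in mutant and 0.58 in control cells. Of 15 genes of glycerolipid synthesis and storage, 5 rose and 1 fell in mutant cells, and 3 rose and 2 fell in control cells. Plin2, which coats lipid droplets, rose by 1.23 (SE 0.19, adjusted p = 0.00121) in mutant cells, and Agpat2 dropped by 0.69 in mutant and 0.70 in control cells.

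Of 18 genes of fatty acid oxidation, 4 rose and 5 fell in each genotype, where 14.9% of all genes rose and 10.3% fell in mutant cells and 12.8% rose and 13.3% fell in control cells. Hadhb, a subunit of the mitochondrial trifunctional protein, dropped by 1.11 in mutant and 1.29 in control cells. Cpt1a, which loads fatty acids for entry into mitochondria, dropped by 1.56 in control cells (adjusted p = 0.000528), against a difference of -0.63 (SE 0.23, adjusted p = 0.0763) in mutant cells. Of 9 genes that use isoprenoids, 2 rose and 2 fell in mutant cells, and 1 rose and 2 fell in control cells. Of 6 further genes of SREBP processing, 2 fell in mutant cells, Erlin1 by 0.49 and Pgrmc1 by 0.35, both calls being lost without either mutant ESC-medium array, among others (adjusted p up to 0.298 and 0.221). None was called in control cells by limma, where 2 of the 6 had an unadjusted p under 0.05, beside 6982 of all 19935 genes.

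Between genotypes in N2B27, with calls for 4.1% of all genes as higher and 1.64% as lower, 4 of the 26 genes of fatty acid synthesis and activation were higher in mutant cells, among them Idh1 at 0.56 (SE 0.11, adjusted p = 0.0187) and Mlx, a partner of lipogenic transcription factors, at 0.38 (SE 0.07, adjusted p = 0.0110). Both calls were lost with the compared groups alone, that of Mlx also with the replicate block and that of Idh1 without control N2B27 array 3 (adjusted p up to 0.0597 for Idh1 and 0.0676 for Mlx). In ESC medium the shares of all genes were 3.09% higher in mutant cells and 3.05% lower. Of 9 genes that use isoprenoids, 1 was higher, Fnta, the shared subunit of protein farnesyl and geranylgeranyl transferases, at 0.68 (SE 0.10, adjusted p = 0.00443). This call was lost without mutant ESC-medium array 2 (adjusted p = 0.0598), and Fnta lies on chromosome 8. In the same list 2 genes were lower, Coq2 of ubiquinone synthesis at -0.59 (SE 0.14, adjusted p = 0.0404) and Dhdds of dolichol synthesis at -0.32 (SE 0.08, adjusted p = 0.0439), each call being lost under 8 of 19 alternatives (adjusted p up to 0.358 and 0.261). Plin2 dropped by 1.10 in mutant cells (SE 0.19, adjusted p = 0.00907), a call lost without mutant ESC-medium array 2 or 3 (adjusted p up to 0.0996). Of 18 genes of fatty acid oxidation, 2 were higher in mutant cells, the thiolase Acaa2 at 0.61 (SE 0.08, adjusted p = 0.00189) and the acylcarnitine carrier Slc25a20 at 1.19 (SE 0.20, adjusted p = 0.00790), and 1 was lower, Cpt1c at -0.73 (SE 0.11, adjusted p = 0.00383). The calls of Slc25a20 and Cpt1c were lost without mutant ESC-medium array 2 (adjusted p = 0.103 and 0.0618).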

How the data were processed

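One-colour Affymetrix arrays of 11 samples were deposited as 1 table of log2 values for transcript clusters. Per the submitters' processing notes, the authors ran RMA and Affymetrix Expression Console 1.2. The values are centred cluster by cluster; neither the baseline nor the log base is stated, and base 2 follows from RMA's usual output. Centring removes brightness, so no dim-probe filter was possible.

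Clusters with 1 symbol in the platform annotation (21780 of 28815) were kept and clusters of a gene averaged, giving 19935 genes. Group means were fitted over all 4 groups with limma 3.58.1 in R 4.3.3 (7 residual and 3.02 prior degrees of freedom). Tests were two-sided, with Benjamini-Hochberg adjustment over all genes and calls at adjusted p under 0.05. Standard errors (SE) and 95% intervals are moderated. The fit was tested on simulated data. The number of arrays limits the precision.

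Array numbers were taken to pair samples where same-numbered deviations correlated above 0.1 in 3 pairs: between genotypes in N2B27 at 0.256, 0.430 and 0.158, and between media in control cells at 0.138, 0.181 and 0.131. The sample labels state no such pairing, and correlations between arrays of unlike numbers were not computed. Alternatives were the replicate block, array weights, the compared groups alone, other scalings, other rules for several clusters, no chromosome 8, X or Y, and leaving out each array. The members and lists were chosen with earlier results of these data known. Members called at least once, and 12 listed by name (among them Srebf1, Scap, Fasn and Scd2), are given on every array; of each other list, up to 4 called genes with the largest differences could be named. Marker lists of neural progenitors and endoderm were also counted: 2 of 10 neural and no endoderm genes were higher in mutant N2B27 cells, and 1 of 13 endoderm genes was lower. Of all genes, 4.1% were higher and 1.64% lower.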

Additional observations from a re-analysis of the deposited data

Results flagged for a closer look

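In 6 genes outside the 34, the medium response differed between the genotypes by the limma interaction test (mutant response minus control response). Of all genes tested, 2.12% were called in it. The 6 were 1 of 26 genes of fatty acid synthesis and activation and 1 of 15 of glycerolipid synthesis and storage. The rest were 2 of 11 fibroblast, 1 of 10 neural progenitor and 1 of 13 endoderm markers. The other lists held no call. Elovl1, an elongase of long chains, differed by 0.58 (SE 0.09, adjusted p = 0.0157), and Lpin1, a phosphatidate phosphatase of glycerolipid synthesis, by 0.85 (SE 0.18, adjusted p = 0.0398). Among fibroblast markers, Col1a1 differed by 1.55 (SE 0.27, adjusted p = 0.0194) and Tagln by 2.35 (SE 0.48, adjusted p = 0.0371). The neural progenitor marker Nes differed by 2.11 (SE 0.43, adjusted p = 0.0367) and the endoderm marker Hnf4a by -1.06 (SE 0.18, adjusted p = 0.0172). Of 19 alternatives, 9 lost the call of Nes, 8 that of Lpin1, 7 that of Tagln and 4 that of Col1a1. The call of Elovl1 was lost in 3 and that of Hnf4a in 2. Each call was lost on leaving out mutant ESC-medium array 2, with adjusted p of 0.0713 for Elovl1, 0.169 for Lpin1, 0.100 for Col1a1, 0.174 for Tagln, 0.186 for Nes and 0.101 for Hnf4a.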

How the results depend on the processing

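Under 19 alternatives, 11 of them leaving out 1 array, 263 of the 285 recomputed counts and branch medians stayed within 1.5 times the count or within the spread of the main value, and 22 moved. No called value changed direction, while the uncalled fatty acid median for mutant against control in ESC medium, -0.0076, ran from -0.08 to 0.08 without 1 array, and was 0.0061 with the replicate block and 0.012 with array weights. Counts of the 34 genes called for mutant against control in ESC medium were 11 with array weights (4 higher, 7 lower), 15 with the replicate block (4 higher, 11 lower) and 1 to 6 without 1 array. For mutant against control in N2B27 they were 9 with array weights, 9 with the replicate block, 1 with the compared groups alone, 1 without chromosomes 8, X and Y, and 2 to 5 without 1 array. For N2B27 against ESC medium in control cells they were 19 with array weights, 15 with the replicate block and 6 to 13 without 1 array, and in mutant cells 24 with the block and 13 to 21 without 1 array. The interaction had 6 calls with array weights, 4 with the replicate block and 0 to 1 without 1 array. For none of these alternatives was the share of all genes called counted, so these counts are not read as particular to the 34 genes. The median medium difference of fatty acid genes in mutant cells was 0.74 with the block and 0.35 to 0.74 without 1 array. The block fit here held no mutant N2B27 array 1. Apart from arrays absent from block fits and Msmo1 removed with chromosome 8, the cause of these shifts was not tested. In direct comparisons with mutant ESC-medium arrays only numbers 2 and 3 form pairs, so these were not taken to pair the arrays. Their block fits used only arrays 2 and 3 of each group, leaving out control ESC-medium array 1 or mutant N2B27 array 1. The block fit of the interaction kept all 11 arrays and did apply the numbers to mutant ESC-medium arrays. Background correction, the filter on dim probes and a slide block could not be run on centred, summarised values, and with 2 or 3 arrays a group small differences could not be detected.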
